A study of Mus musculus with 6 samples.

Results

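The Ly6 genes described here encode small surface proteins of mouse leukocytes, and they were picked by name as *Ly6a*, *Ly6c1*, *Ly6c2*, *Ly6e*, *Ly6g*, *Ly6i*, *Ly6d* and *Ly6k*. Of these 8 members, 7 were found among the 22248 genes of the deposited FPKM matrix, and *Ly6k* was not analysed here. The members were proposed with their values in this same comparison known, so those values are given as a description and without a test. RNA came from unstimulated bone-marrow-derived macrophages (BMDMs), which are bone marrow cells grown with macrophage colony-stimulating factor. The control group comprised 3 libraries from *Lyz2cre* mice with one Cre allele, and the CITED2-deficient group comprised 3 libraries from *Cited2fl/fl*:*Lyz2cre* mice with both *Cited2* alleles floxed and one Cre allele. All mice were of the C57BL/6 strain, and the labels give postnatal week 10, whereas the methods give a younger age. In both groups Cre is driven by the *Lyz2* gene, which is active in myeloid cells, and cells in the culture that never used *Lyz2* would keep *Cited2*. The labels do not say whether replicates came from separate mice, so the spread between libraries may be technical.

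Ly6 proteins fold into a compact three-finger domain held together by disulfide bonds, and most are tied to the outer membrane by a glycosylphosphatidylinositol (GPI) anchor. In mouse immunology they are best known as antibody targets. Sca-1, the product of *Ly6a*, marks hematopoietic stem cells and is also found on activated lymphocytes, endothelial cells and some stromal cells. Ly6C, from *Ly6c1* and *Ly6c2*, separates inflammatory from patrolling monocytes, and Ly6G, from *Ly6g*, marks neutrophils. *Ly6a*, *Ly6c2*, *Ly6e* and *Ly6i* are known to respond to interferons in several cell types, and *Ly6d* is used to subdivide early lymphoid progenitors.

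The genes sit side by side on mouse chromosome 15, where the 8 members span 397.1 kb in mm10, from 74762056 to 75159126. Their coding sequences show why fragments of some members cannot be assigned with certainty. The first 90 coding bases are printed 5′ to 3′ from the GENCODE vM21 transcripts (GRCm38), with capitals at every base that differs from *Ly6c2*. They are shown for the abundant members and for their nearest relatives.
Ly6c2: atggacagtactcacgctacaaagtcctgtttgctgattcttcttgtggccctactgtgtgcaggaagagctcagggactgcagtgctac
Ly6c1: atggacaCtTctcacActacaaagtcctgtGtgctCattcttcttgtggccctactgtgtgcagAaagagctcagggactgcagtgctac
Ly6a: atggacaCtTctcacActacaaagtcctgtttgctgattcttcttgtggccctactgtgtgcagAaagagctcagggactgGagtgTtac
Ly6i: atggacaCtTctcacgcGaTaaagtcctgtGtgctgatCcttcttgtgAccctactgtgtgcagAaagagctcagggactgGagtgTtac
Ly6g: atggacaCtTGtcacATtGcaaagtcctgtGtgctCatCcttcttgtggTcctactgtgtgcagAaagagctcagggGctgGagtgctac
Ly6e: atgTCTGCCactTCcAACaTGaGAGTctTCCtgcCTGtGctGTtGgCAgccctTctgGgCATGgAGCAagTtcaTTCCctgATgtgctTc
In this stretch *Ly6a* and *Ly6c1* each differed from *Ly6c2* at 6 bases, *Ly6i* at 10, *Ly6g* at 13 and *Ly6e* at 47. Over the whole aligned coding sequence *Ly6c1* and *Ly6c2* differed in 9 of 393 columns, an identity of 97.7%, and their longest identical run was 188 bases. *Ly6a* shared 86.3% of aligned positions with *Ly6i*, 83.1% with *Ly6g* and 81.6% with *Ly6c2*. *Ly6e*, *Ly6d* and *Ly6k* stood apart, with 40.9% to 49.8% identity to every other member.

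**Figure D1:**
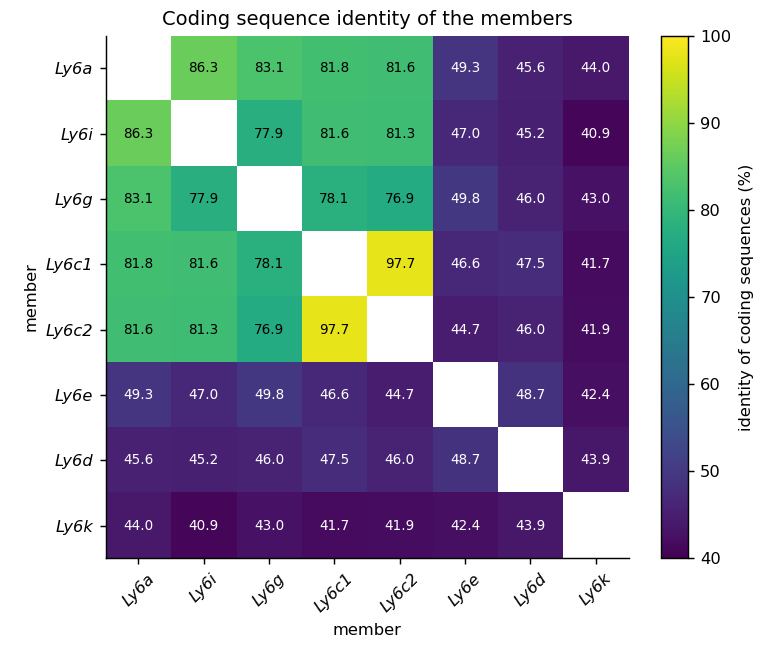
Identity of the coding sequences (%, color and printed value) for each pair of the 8 members, from global alignments of 1 principal transcript per gene. *Ly6a*, *Ly6i*, *Ly6g*, *Ly6c1* and *Ly6c2* form a block at 76.9% or more, with 97.7% for the Ly6c pair, while *Ly6e*, *Ly6d* and *Ly6k* stay under 50% with all others.

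How much of each transcript is unambiguous was counted with all distinct windows of 50 bases. Of the *Ly6c1* windows 32.8% occurred in another gene, mostly *Ly6c2* (379 windows) and *Ly6a* (195 windows). The share was 19.0% for *Ly6a*, 14.5% for *Ly6c2*, 4.8% for *Ly6i* and 0.4% for *Ly6g*. No window of *Ly6e* or *Ly6d* was shared. None of the 7 measured members overlapped another annotated gene on either strand. No source used here says how fragments of shared stretches were divided, so the split between *Ly6c1* and *Ly6c2* is uncertain. The same holds for *Ly6c1* and *Ly6i* beside the far more abundant *Ly6a*, with which *Ly6i* shared 31 windows.

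Expression was dominated by *Ly6e* and *Ly6a* in both genotypes, and *Ly6a*, *Ly6c2* and *Ly6e* were all higher in CITED2-deficient BMDMs. FPKM is a fragment number divided by transcript length and library size. The length that fitted these values was the mean over annotated transcripts, so levels can be compared between genes only approximately. The limit for the fit across all genes was a mean of 1 FPKM, which these 3 members passed in the control libraries alone. All 3 were called higher by limma (Benjamini-Hochberg adjusted p under the threshold of 0.05), against 16.7% of the 11687 genes tested, and all 3 had groups that did not overlap, against 19.0%. Since the members were chosen on this contrast, nothing is read from these counts. The 4 others, *Ly6c1*, *Ly6i*, *Ly6g* and *Ly6d*, stayed below the limit. In bulk RNA a change in the number of cells that express a gene and a change in RNA per cell cannot be told apart.

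*Ly6a* (ENSMUSG00000075602, 74994877 to 74998031, minus strand), which encodes Sca-1, moved furthest. Control replicates 1 to 3 held 41.4, 42.8 and 44.9 FPKM, whereas 877, 873 and 909 FPKM were measured in the CITED2-deficient replicates. The groups were far apart, and the lowest CITED2-deficient library was 19.4 times the highest control library. The group means of 43.0 ± 1.81 and 886 ± 19.9 (SD, n = 3 each) differed 20.6-fold. On the log2(FPKM + 1) scale, which understates the change of low genes, the difference was 4.33 (standard error 0.036). Among the genes tested this rise had rank 2. *Ly6a* went from rank 2693 to 2899 among the listed genes of each control library to rank 70 to 75 in each CITED2-deficient library. The numbers of fragments recovered from the FPKM were 612, 580 and 667 against 17448, 15435 and 18582, so counting error was small beside the difference. The replicates varied by 4.19% (CV) in control BMDMs, where counting alone gives 4.02%, and by 2.25% in CITED2-deficient BMDMs, where it gives 0.763%.

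*Ly6e* (ENSMUSG00000022587, 74955051 to 74959905, plus strand) encodes a widely expressed Ly6 protein known for its effects on virus entry. It was the most abundant member in every library. It reached 590, 548 and 552 FPKM in the control replicates, compared with 2193, 2267 and 2251 FPKM when CITED2 was deficient. No library of either group came near the other group. The means were 564 ± 23.2 and 2237 ± 38.8 (SD, n = 3 each), a 3.97-fold difference, and the log2 difference was 1.99 (standard error 0.033). *Ly6e* ranked 129 to 150 among the listed genes of a control library and 23 or 24 in a CITED2-deficient library. *Ly6e* and *Ly6a* together took 0.0637% ± 0.0024 of the fragments of control libraries and 0.309% ± 0.0047 of those of CITED2-deficient libraries (SD, n = 3 each).

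*Ly6c2* (ENSMUSG00000022584, 75108158 to 75111970, minus strand), which encodes a form of the monocyte antigen Ly6C, was present at a lower level. The control replicates gave 7.20, 9.20 and 6.73 FPKM, and the CITED2-deficient replicates gave 35.6, 38.7 and 33.6 FPKM. The lowest CITED2-deficient library was 3.65 times the highest control library. The means were 7.71 ± 1.32 and 36.0 ± 2.59 (SD, n = 3 each), a 4.67-fold difference, and the log2 difference was 2.09 (standard error 0.10). Control libraries varied by 17.1% (CV) against 7.79% from counting alone, the widest spread of the 3 abundant members.

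*Ly6c1* (ENSMUSG00000079018, 75044018 to 75048830, minus strand) is the near-identical neighbor of *Ly6c2*. Only 0.256, 0.653 and 0 FPKM were found in the control replicates, against 1.21, 1.50 and 0.989 FPKM in the CITED2-deficient replicates. These values rest on 3, 7 and 0 fragments against 19, 21 and 16. The groups did not overlap. Per unit of depth, the pooled fragments were 4.17 times as many in CITED2-deficient libraries (95% exact interval 2.11 to 9.16, counting error only). Because of the shared sequence the pair was also added up, which gave 162, 193 and 149 control fragments against 1077, 1043 and 1040 CITED2-deficient ones. The ratio of the sums was 4.67 (95% exact interval 4.25 to 5.14). It was set almost wholly by *Ly6c2*, which in libraries with *Ly6c1* above 0 had 14.1 to 33.9 times the FPKM of *Ly6c1*.

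The promoters of this pair are shown because the genes are so alike in coding sequence. The 150 bases before the RefSeq start are printed 5′ to 3′ on the minus strand of GRCm38.p6, at chr15:75048838-75048987 for *Ly6c1* and chr15:75111972-75112121 for *Ly6c2*. Capitals mark runs of at least 12 bases that occur in both.
Ly6c1: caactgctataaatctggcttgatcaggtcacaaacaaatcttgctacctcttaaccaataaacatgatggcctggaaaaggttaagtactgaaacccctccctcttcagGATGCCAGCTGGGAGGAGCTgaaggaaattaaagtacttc
Ly6c2: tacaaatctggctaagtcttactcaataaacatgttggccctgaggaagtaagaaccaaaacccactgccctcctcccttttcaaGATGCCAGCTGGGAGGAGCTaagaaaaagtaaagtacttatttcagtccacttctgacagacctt
By this cutoff 20 bases of each promoter lay in such a run. Shorter shared runs are present but not marked, and the identity of the 2 promoters was not computed. Promoter entries were at hand for 3 members, *Ly6c1*, *Ly6c2* and *Ly6g*, with 6 windows of 250 bases before to 50 after a start. The core of the interferon-stimulated response element (a pair of GAAA runs with 2 bases between them) and the gamma-activated site (TTCNNNGAA) were searched on both strands, and their matches can overlap. Both were found in 0 of these 6 windows, while 3.44% and 8.30% of all 32851 windows held them. No match says only that these letters are not in the window. *Ly6a*, *Ly6e*, *Ly6i*, *Ly6d* and *Ly6k* had no entry.

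*Ly6i* (ENSMUSG00000022586, 74979534 to 74983430, minus strand), a close relative of *Ly6a*, was almost undetected in control BMDMs. The control replicates yielded 2, 2 and 0 fragments of it and the CITED2-deficient replicates 18, 27 and 26, or 0.119, 0.130 and 0 FPKM against 0.798, 1.35 and 1.12. The groups did not overlap. The pooled ratio per unit of depth was 13.2, with a wide 95% exact interval of 4.94 to 49.8. This interval covers counting error only. Whether fragments of *Ly6a* were assigned to *Ly6i* through their shared sequence was not tested.

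*Ly6g* (ENSMUSG00000022582, 75155240 to 75159126, plus strand), the neutrophil antigen gene, was close to the detection limit in both genotypes. It had 5, 0 and 5 fragments in control libraries and 13, 8 and 5 in CITED2-deficient libraries, or 0.415, 0 and 0.414 FPKM against 0.802, 0.555 and 0.300. The groups overlapped, and the pooled ratio of 1.93 had an interval of 0.903 to 4.50. *Ly6d* (ENSMUSG00000034634, 74762056 to 74763620, minus strand), the lymphoid progenitor and epithelial member, had 2, 3 and 5 fragments against 9, 5 and 6. Its groups overlapped too, at 0.142, 0.233 and 0.355 FPKM against 0.476, 0.298 and 0.309, and the ratio was 1.49 (0.665 to 3.56). A difference in either gene was not detectable at this depth. Of the 4 members below the limit, 2 had CITED2-deficient libraries wholly above the controls, against 9.98% of the 10561 detected genes below it.

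**Figure D2:**
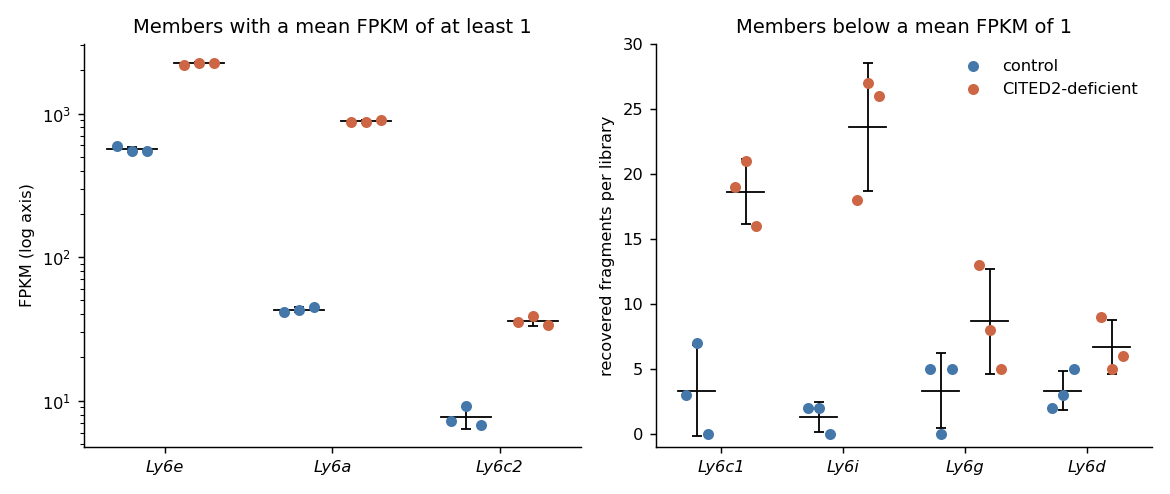
Left, FPKM (log axis) of *Ly6e*, *Ly6a* and *Ly6c2*. Right, recovered fragments per library of the 4 members below a mean FPKM of 1. Points are libraries in the order of replicates 1 to 3, and bars are the mean and SD of 3. The groups are apart for *Ly6e*, *Ly6a*, *Ly6c2*, *Ly6c1* and *Ly6i* and touch or overlap for *Ly6g* and *Ly6d*.

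The order of the members changed little between genotypes, but their proportions did. In control BMDMs the mean FPKM fell from *Ly6e* through *Ly6a* and *Ly6c2* to *Ly6c1*, *Ly6g*, *Ly6d* and *Ly6i*. The ranges over libraries of *Ly6c1* and *Ly6g*, and of *Ly6g* and *Ly6d*, overlapped. In CITED2-deficient BMDMs the same first 4 members led, followed by *Ly6i*, *Ly6g* and *Ly6d*, and each neighboring pair from *Ly6c1* on overlapped. *Ly6e* exceeded *Ly6a* 13.1-fold in control BMDMs and 2.52-fold in CITED2-deficient BMDMs. Within single libraries the FPKM of *Ly6a* was 0.0701, 0.0782 and 0.0814 of that of *Ly6e* in the controls and 0.400, 0.385 and 0.404 in the CITED2-deficient group, with no overlap. The ratio of *Ly6a* to *Ly6c2* was 5.75, 4.66 and 6.68 in the controls and 24.6, 22.5 and 27.1 in the CITED2-deficient group. Ratios within a library do not depend on the scaling between libraries. The sum over the 7 members was 601 to 640 FPKM in control and 3109 to 3197 FPKM in CITED2-deficient libraries.

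Depth, genotype and scaling were checked across all genes. The depth recovered from the FPKM was 17289286 to 18952077 fragments in control libraries and 22583995 to 26100410 in CITED2-deficient libraries. *Cited2* itself had 71.7 to 79.3 FPKM in control and 7.22 to 9.27 FPKM in CITED2-deficient libraries. Of all tested genes, 1950 were higher and 4044 lower (34.6%) by limma, and the median log2 difference was -0.10. After median-ratio scaling between libraries that median was -0.01, and 2696 genes were higher and 2490 lower. The log2 differences of *Ly6a*, *Ly6c2* and *Ly6e* then remained positive, at 4.44 for *Ly6a* and 2.09 for *Ly6e*.

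Among tested genes along the chromosome, the larger log2 differences lay from *Ly6e* to *Ly6c2*, where the members chosen on this contrast sit. The scale understates changes of genes below the limit, and *Gm39556*, before *Ly6e*, had 1.01 without a filter. Within 500 kb of the members' span 23 genes were listed and 9 tested, of which limma called 5 higher and 0 lower, against 16.7% and 34.6% of all tested genes. The 5 include the 3 abundant members, which were chosen on this contrast. *Gm5960*, an unprocessed pseudogene between *Ly6c1* and *Ly6c2*, was measured at 0.739 ± 0.743 FPKM in control BMDMs and 7.14 ± 1.27 FPKM (SD, n = 3 each) in the other genotype. The log2 difference of *Gm5960* was 2.30 (standard error 0.27). *Gm5960* passed the limit only through the CITED2-deficient libraries, so no p is given and its call among the 5 is not read. *I830127L07Rik*, which RefSeq calls *Ly6a2* and GENCODE vM21 a transcribed pseudogene, lies between *Ly6c2* and *Ly6g* and had 11.2, 13.8 and 10.3 FPKM against 18.0, 12.96 and 14.9. These groups overlapped, and its log2 difference of 0.35 (standard error 0.13) barely passed in limma (adjusted p = 0.043). The call was lost in 7 of 15 alternatives, and over the 15 the limma adjusted p ranged from 0.0159 to 0.141. The 4 tested genes outside the cluster, *Them6*, *Zfp41*, *2810039B14Rik* and *Top1mt*, had log2 differences between -0.21 and 0.00, and none passed. Among non-members below the limit, *Adgrb1*, *Arc*, *Gm39556*, *Lynx1* and *2010109I03Rik* had CITED2-deficient libraries wholly above the controls. The share was 9.98% of all detected genes below it. *Adgrb1* was at 0.196 ± 0.0446 against 0.0581 ± 0.0654 FPKM and *Arc* at 0.245 ± 0.0512 against 0.142 ± 0.0300 FPKM. *Gm39556* was at 1.38 ± 0.442 against 0.168 ± 0.106 FPKM and *Lynx1* at 1.27 ± 0.412 against 0.433 ± 0.333 FPKM. *2010109I03Rik* was at 0.266 ± 0.0865 against 0.0882 ± 0.0809 FPKM (SD, n = 3 each).

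**Figure D3:**
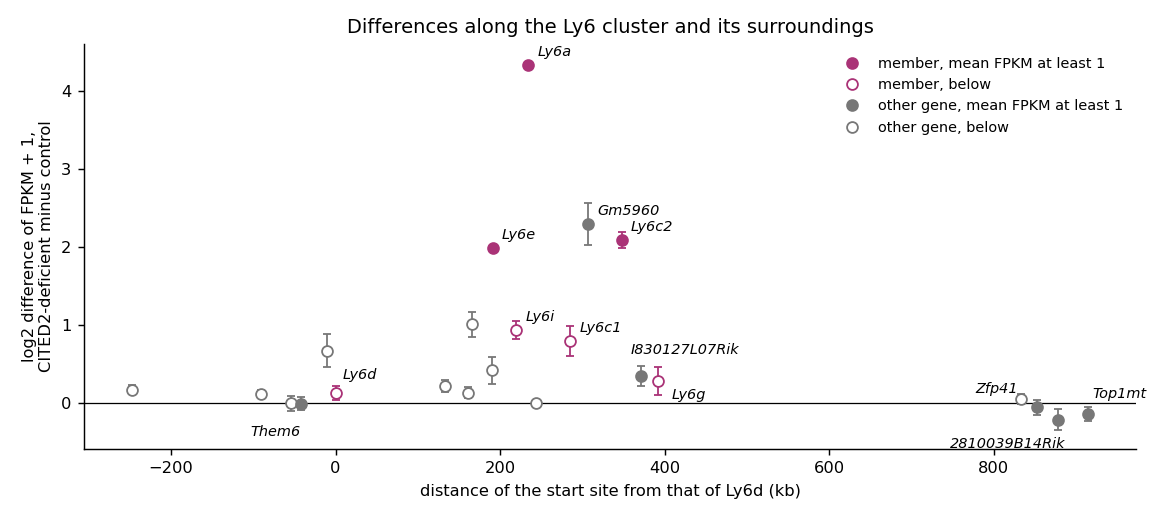
Log2 difference of FPKM + 1 (CITED2-deficient minus control, with its standard error) against the distance of each start site from that of *Ly6d* in kb, for the 23 genes listed within 500 kb of the members. Members are colored, and open symbols are genes below a mean FPKM of 1. *Ly6a* stands at 4.33, *Gm5960*, *Ly6c2* and *Ly6e* near 2, and the 4 tested genes outside the cluster near 0.

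Other genes of the Ly6/uPAR family share the three-finger fold. Their differences are not compared in size with those of the members, which were chosen on this contrast. Of 47 such genes looked up, 14 were listed and 4 tested, and limma called 2 higher and 0 lower, against 16.7% and 34.6% of all tested genes. The median log2 difference of the 4 was 0.20, beside -0.10 over all tested genes. Of the 14 listed, 3 had CITED2-deficient libraries wholly above the controls: *Cd177*, *Lynx1* and *2010109I03Rik*. The share was 19.0% of all tested genes and 9.98% of detected genes below the limit. Besides *I830127L07Rik*, *Cd177*, a neutrophil surface gene, was higher, with 5.74, 6.69 and 4.22 FPKM against 8.54, 8.50 and 7.97 (log2 difference 0.53, standard error 0.13, limma adjusted p = 0.00799). *Plaur*, the urokinase receptor, had 15.6 ± 2.05 FPKM against 16.1 ± 0.474, and *Cd59a*, an inhibitor of complement lysis, had 6.04 ± 1.04 against 5.19 ± 0.250 (SD, n = 3 each). Neither passed the test, but without control replicate 1 *Cd59a* was called lower (log2 difference -0.29, limma adjusted p = 0.0439) and *I830127L07Rik* lost its call. *Gm7609*, a pseudogene on chromosome 1, had been put on the list by mistake and was left out. With it the count would be 3 of 5 called higher, though *Gm7609* passed the limit only through the CITED2-deficient libraries.

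Several Ly6 genes respond to interferon, so 18 genes of interferon signaling were described beside them. Of the 16 tested, limma called 8 higher, 4 lower and 4 neither, against 16.7% higher and 34.6% lower of all tested genes, and the median log2 difference was 0.23 beside -0.10. The genes called higher were transcription factors, the feedback genes *Usp18* and *Socs1*, and 1 kinase. *Stat2*, which works with *Irf9* in type I interferon signaling, had a log2 difference of 2.10 (standard error 0.04, limma adjusted p = 1.45e-09) and *Usp18*, a feedback inhibitor at the receptor, 2.30 (standard error 0.08, limma adjusted p = 2.58e-08). *Irf1* rose by 0.84, *Socs1* by 0.74, *Irf9* by 0.67, *Irf2* by 0.33 and *Jak2* by 0.29 on this scale. *Socs1* had a control mean of 0.587 FPKM and passed the limit only through the CITED2-deficient libraries. The genes called lower were 3 receptor chains, with -0.92 for *Ifngr1*, -0.30 for *Ifnar2* and -0.27 for *Ifnar1*, and the kinase *Jak1* at -0.11. The call of *Jak1* was lost without the variance trend and after median-ratio scaling, where its log2 difference was -0.0023. *Ifngr2*, *Tyk2*, *Socs3* and *Ptpn2* did not pass, but the first, second and last of these were called higher after median-ratio scaling, when the list had 11 higher and 3 lower. Quantile normalization gave 10 higher and 4 lower. Among all tested genes median-ratio scaling gave 2696 higher and 2490 lower, and quantile normalization 2265 higher and 3125 lower. *Ifnb1*, the interferon beta gene, was listed at 0 in all control libraries and at 0.262, 0.118 and 0.255 FPKM in the CITED2-deficient libraries, below the limit for testing.

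The GPI anchor that most Ly6 proteins carry is built and attached by enzymes of the endoplasmic reticulum. Of 30 such genes, 29 were tested, and limma called 0 higher and 9 lower, against 16.7% and 34.6% of all tested genes. Their median log2 difference was -0.11, beside -0.10 for all tested genes. The 2 lowest were *Pigp*, a subunit of the complex that starts the anchor (19.3 ± 1.02 FPKM against 10.7 ± 0.336, log2 difference -0.80, limma adjusted p = 5.10e-06), and *Dpm1*, which makes its mannose donor (7.58 ± 0.481 against 4.11 ± 0.630, log2 difference -0.75, limma adjusted p = 0.000334; SD, n = 3 each). The calls depended on the scaling. Median-ratio scaling gave 3 higher and 5 lower, against 2696 higher and 2490 lower of the 11687 tested genes. Quantile normalization gave 4 higher and 6 lower, against 2265 higher and 3125 lower. No excess of lower calls over all tested genes is read from these counts. The anchor genes together summed to 546 FPKM in each control library and to 502 to 506 FPKM in CITED2-deficient libraries.

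**Figure D4:**
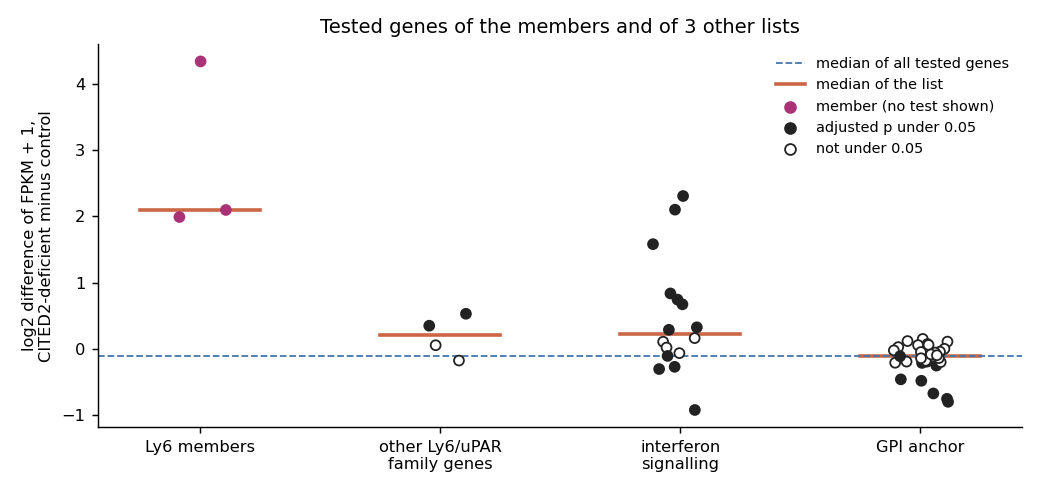
Log2 differences of FPKM + 1 (CITED2-deficient minus control) of the tested genes of each list. Filled symbols passed limma's adjusted p threshold, horizontal bars are list medians, the dashed line is the median of all tested genes (-0.10), and the members are shown without a test. The 3 members lie at 1.99 to 4.33, the interferon signaling genes between -0.92 and 2.30, and the GPI anchor genes around the dashed line.

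Ly6 proteins mark other cells that bone marrow cultures can hold, so marker lists of these cells were read beside the members. Their counts of calls stand against 16.7% higher and 34.6% lower among all tested genes. Of the 9 macrophage markers, all were detected in every library, and their sum was 5976 to 6044 FPKM in control and 5386 to 5477 FPKM in CITED2-deficient libraries. By limma 1 was higher (*Fcgr1*, 1.48 on the log2 scale), 6 were lower and 2 did not pass. *Mrc1* fell by 1.76, *Lyz2* fell by 1.59 and *Itgam* fell by 0.81 on that scale, and *Csf1r* and *Adgre1* were lower too, though still at 906 and 1748 FPKM or more. For Ly6C, of 9 inflammatory monocyte markers, 6 were called higher and 3 lower by limma, and their sum was 456 to 502 FPKM against 396 to 445 FPKM. That sum was set mainly by *F13a1* and *Chil3*, and the median log2 difference of the list was 0.65. *Plac8* was higher by 3.57 and *F13a1* lower by 2.80 on the log2 scale. For Ly6G, of 10 tested neutrophil markers, 4 were higher and 5 lower, with sums of 734 to 805 against 676 to 795 FPKM. *Mpo* fell by 2.54, and *Retnlg* was higher by 1.74. *Retnlg* and the monocyte marker *Vcan* had control means under the limit and passed it only through the CITED2-deficient libraries.

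The cells known for *Ly6a* were looked at in the same way. Of 9 hematopoietic progenitor markers 8 had a mean FPKM under 1, and their sum was 2.89 to 3.00 FPKM in control and 2.29 to 2.68 FPKM in CITED2-deficient libraries. Of 9 endothelial markers 3 of the 4 tested were higher, with sums of 7.22 to 8.67 against 32.5 to 38.2 FPKM. Most of that sum was *Kdr*. Of the 4 tested, *Flt1*, *Cdh5* and *Pecam1* had control means under the limit and passed it only through the CITED2-deficient libraries. *Flt1* was at 0.299 ± 0.189 against 3.47 ± 0.656 FPKM and *Cdh5* at 0.720 ± 0.270 against 1.52 ± 0.0797 FPKM (SD, n = 3 each). The groups did not overlap for 6 of the 9 genes, all higher, while *Tek* and *Tie1* stayed under 0.2 FPKM. That share was 19.0% of all tested genes and 9.98% of detected genes below the limit. Of 9 fibroblast or stromal markers all 6 tested were higher, with sums of 42.8 to 51.0 FPKM in control libraries and 542, 171 and 172 FPKM in CITED2-deficient replicates 1 to 3. Replicate 1 stood apart here through the collagens, with 305 FPKM of *Col1a1* against 62.0 and 62.6 in the other two. Other genes of the list differed less between these replicates. *Dcn* was at 6.83, 6.18 and 7.53 FPKM, *Pdgfra* at 4.85, 3.90 and 3.95, and *Pdgfrb* at 3.03, 2.08 and 2.23. *Pdgfrb* had a control mean of 0.936 FPKM and passed the limit only through the CITED2-deficient libraries. *Ly6a* was at 877, 873 and 909 FPKM in replicates 1 to 3, and without replicate 1 its log2 difference was 4.34. The part of stromal and endothelial RNA in the level of *Ly6a* was not tested. Of 7 T cell, 8 B lineage, 6 plasmacytoid dendritic cell and 6 keratinocyte markers, only 1, 2, 2 and 0 could be tested, and limma called 1 lower (*Cd4*) and 1 higher (*Ebf1*). *Ebf1* passed the limit only through the CITED2-deficient libraries. Of the keratinocyte markers 2 were listed. *Cd3e*, *Siglech* and *Trp63* stayed under 0.3 FPKM in every library, but other genes of their lists did not. In control and CITED2-deficient BMDMs *Cd4* averaged 6.85 and 4.41 FPKM, *Tcf4* 101 and 95.2, and *Krt10* 0.934 and 0.835. The T cell markers *Cd3e* and *Lck* had CITED2-deficient libraries wholly above the controls, against 9.98% of detected genes below the limit.

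**Figure D5:**
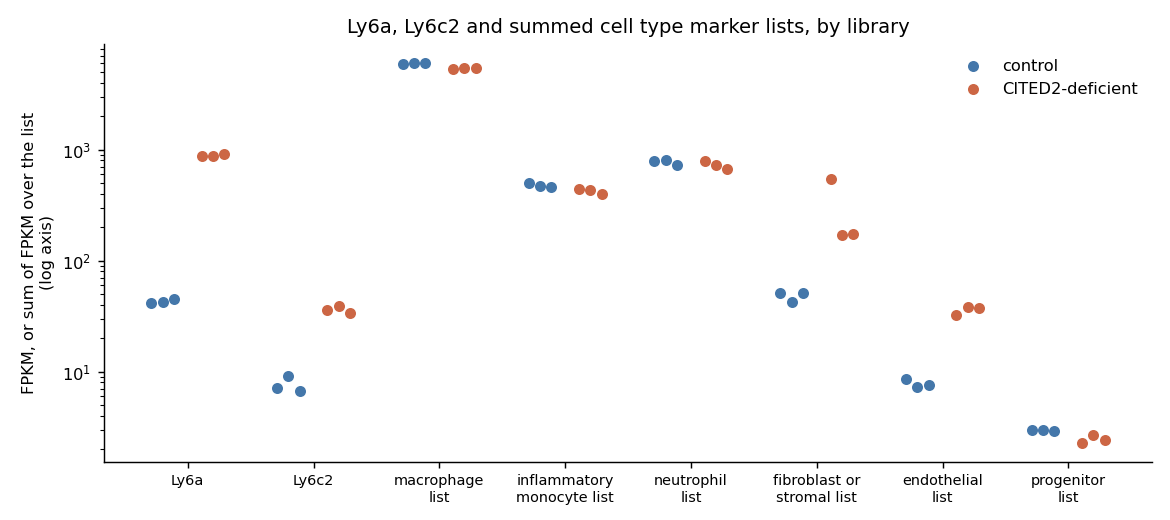
FPKM of *Ly6a* and *Ly6c2* and sums of FPKM over 6 marker lists (log axis). Points are libraries in the order of replicates 1 to 3. The stromal sum of CITED2-deficient replicate 1 (542) stands above replicates 2 and 3 (171 and 172) through the collagens. *Ly6a* has 877, 873 and 909 FPKM in these 3 libraries, and the endothelial sums of the groups are apart. The monocyte sum is set mainly by *F13a1* and *Chil3*, and 6 of its 9 genes were called higher.

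The genes whose profile over the 6 libraries was nearest to each abundant member were named by a fixed rule, as the 3 tested genes with the smallest root mean square difference of log2(FPKM + 1) relative to the control mean. For *Ly6a* they were *Ifit1bl1* (0.10), *Ifi44* (0.11) and *Ms4a4c* (0.14). For *Ly6e* they were *Oas1g* (0.027), *Irgm1* (0.041) and *Xaf1* (0.054), and for *Ly6c2* they were *Gm7592* (0.080), *Gdf3* (0.13) and *Ctnnd2* (0.14). Each value is over 6 libraries of 2 genotypes and mostly reflects the size of the difference between them. *Ifi44* was at 4.60 ± 0.588 FPKM in control BMDMs and 103 ± 7.40 FPKM in CITED2-deficient BMDMs, and *Oas1g* at 20.9 ± 0.384 and 84.7 ± 2.27 FPKM (SD, n = 3 each).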

How the data were processed

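RNA was measured in 6 libraries of resting BMDMs, 3 per genotype, grouped by the sample titles. The authors depleted ribosomal RNA, made stranded libraries, mapped reads to mm10 with STAR and deposited 1 FPKM value per gene and library from Cuffdiff with a GENCODE annotation. No source used here gives tool versions or the annotation release. Fragments were recovered with mean transcript lengths of GENCODE vM21: 21374 of 22239 matched genes (96.1%) gave numbers whole to within 0.02 in every library. No replicates were duplicates (mean chi-square per gene 2.26 to 5.87). Genes averaging 1 FPKM or more were tested as log2(FPKM + 1) with limma 3.58.1 (R 4.3.3), with a variance trend, two-sided, with Benjamini-Hochberg adjustment at 0.05. Cuffdiff's own test works on alignments and was not run. Exact intervals (95%, Clopper-Pearson) cover counting error only. An exact permutation test of 3 against 3 reaches 0.1 at best.

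The members and lists were chosen with earlier results of these data known. Named genes were the members, *Cited2*, tested family genes, called interferon genes, the 2 largest called GPI anchor changes in each direction, tested genes within 500 kb and the 3 nearest genes per member. Marker genes named were chosen after their values were seen. A few genes covered by these choices are left unreported. Alternatives were pseudocounts of 0.1 and 0.5, no low-value filter or one at 5 FPKM, median-ratio and quantile scaling, no trend, a replicate block, limma-voom on recovered fragments, each library left out, and a fold change of at least 2. Sequences came from GENCODE vM21 transcripts and RefSeq promoters (GRCm38.p6).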

Additional observations from a re-analysis of the deposited data

How the results depend on the processing

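The log2 differences of *Ly6a*, *Ly6c2* and *Ly6e* kept their direction in all 15 alternatives, at 4.30 to 4.44, 2.01 to 2.23 and 1.97 to 2.09. The 3 members were called in each of these fits, and 5 were called without a filter, when *Ly6c1* and *Ly6i* entered. Without a filter 2202 of the 22248 genes were called higher and 3619 lower. Since the members were chosen on this contrast, nothing is read from these counts. Requiring a fold change of at least 2 left 615 called genes of 5994 (435 higher and 180 lower, or 70.7% higher against 32.5%), 3 interferon signaling genes of 12, 0 GPI anchor genes of 9 and 0 other family genes of 2. Among other family genes 1 was called without the trend, without a filter and with the replicate block. Leaving out each library gave 5226 to 5467 called genes, 3 members, 1 or 2 other family genes, 11 or 12 interferon signaling genes and 5 to 9 GPI anchor genes, of which 5 remained without CITED2-deficient replicate 3. The single family call was seen without CITED2-deficient replicate 1 or 3 or without control replicate 3, and without control replicate 1 the 2 calls were 1 higher and 1 lower. Genes that never passed changed sign: with median-ratio scaling and quantile normalization, *Them6* was at 0.084 and 0.076, *Zfp41* at 0.032 and 0.018 and *Socs3* at 0.029 and 0.018. With each library left out, *Them6* ranged from -0.059 to 0.039, *Socs3* from -0.15 to 0.075 and *Plaur* from -0.050 to 0.12. The cause was not tested. The replicate numbers did not pair the samples (correlations of 0.014, 0.008 and 0.04), and the replicate block gave 5708 called genes, 12 interferon signaling genes and 7 GPI anchor genes. Median-ratio scaling raised the share of higher calls from 32.5% to 52.0%, and quantile normalization to 42.0%. Both promoter motifs stayed at 0 of 6 windows when only bases before the start were searched. Depth limits *Ly6g*, *Ly6d*, *Ly6c1* and *Ly6i*, and shared sequence also limits *Ly6c1* and *Ly6i*.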
